A study of Mus musculus with 14 samples.

Results

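The 9 genes described here belong to the TGF-beta and BMP signalling pathways. They are the ligand genes *Tgfb1*, *Tgfb2*, *Tgfb3*, *Bmp4* and *Inhba*, the receptor gene *Tgfbr2*, the SMAD genes *Smad3* and *Smad7*, and the inhibitor gene *Fst*. A probe set, a group of short oligonucleotides on the array, was counted for a gene only if the platform annotation gave that symbol and no other. All 9 genes had at least 1 such probe set (20 in all) out of 18193 genes with one, and the probe set with the highest mean over all arrays was taken as the main one. Of the 9, 7 reached an intensity of 50 on 3 or more arrays and were tested, among 8682 tested genes in all. The main probe sets of *Tgfb1* and *Bmp4* were below 50 on every array and are given by value only.

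Messenger RNA of 3T3-L1 cells, mouse fibroblasts that can be turned into fat cells with hormones, was measured on Affymetrix Mouse Genome 430 2.0 arrays. One line carried an empty retrovirus (Empty) and the other a retrovirus for V5-tagged mouse SETD5 behind a weak viral LTR promoter, both stably transduced, and SETD5 is a SET domain protein that the study examined as an inhibitor of fat cell formation. RNA was taken at 0, 12, 24, 36, 48, 96 and 192 h, and there was 1 array for each line at each time, 14 in total, after the confluent cells of both lines had been given MDI (isobutylmethylxanthine, dexamethasone and insulin). MDI was present until 48 h, and insulin alone was given from then on, so the 12 to 48 h arrays are mixture hours and the 96 and 192 h arrays insulin-only hours.

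No virus and hour was repeated, and whether the arrays of one virus came from one culture series was not stated. In the tests between viruses the hours stood in for replicates, and in the tests between hours the viruses did, so every p-value measures only that spread. All 12 fibroblast markers examined passed the intensity filter, as did 8 of 9 measured fat cell markers, while none of the macrophage, endothelial, skeletal muscle or epithelial markers did. The summed intensity of the fat cell markers ran between 1490 and 38250 in the Empty arrays and between 1520 and 20512 in the SETD5 arrays. In such bulk RNA, fewer cells of a type and less RNA per cell cannot be told apart. The Setd5 probe set itself differed by -0.03 ± 0.06 (log2, SE) between SETD5 and empty virus (adjusted p = 0.788), and no source says whether it reads the transgene. The study made more than one SETD5 line, and the labels do not say which was used for the arrays. It therefore checks nothing about the labels.

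TGF-beta and activin ligands bind pairs of serine/threonine kinase receptors, which phosphorylate SMAD2 and SMAD3, whereas BMP ligands act through SMAD1, SMAD5 and SMAD9. The phosphorylated SMADs join SMAD4 and enter the nucleus, and SMAD6 and SMAD7, themselves target genes, dampen the signal. In preadipocytes TGF-beta and activin are known to hold back fat cell formation, whereas BMP4 is known to favour commitment to the fat lineage.

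Over the course of differentiation, 6 of the 7 tested genes changed by the F test, as did 66% of all tested genes, and *Fst* was the exception. The call of *Smad7* was lost without virus as a block (adjusted p = 0.0517), without both 0 h arrays (0.065) or without the Empty array at 0 h (0.0531). *Tgfb3* fell within 12 h and was low up to 96 h, *Smad3* and *Tgfb2* dipped at 12 h, *Tgfbr2* was highest at 36 and 48 h, *Smad7* was low from 24 h on, and *Inhba* was highest at 24 h and below its 0 h level at 96 and 192 h. Between the viruses, none of the 7 was called over all hours, the early hours or the late hours. The plot of intensities by hour shows every value of the main probe sets.

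**Figure D1:**
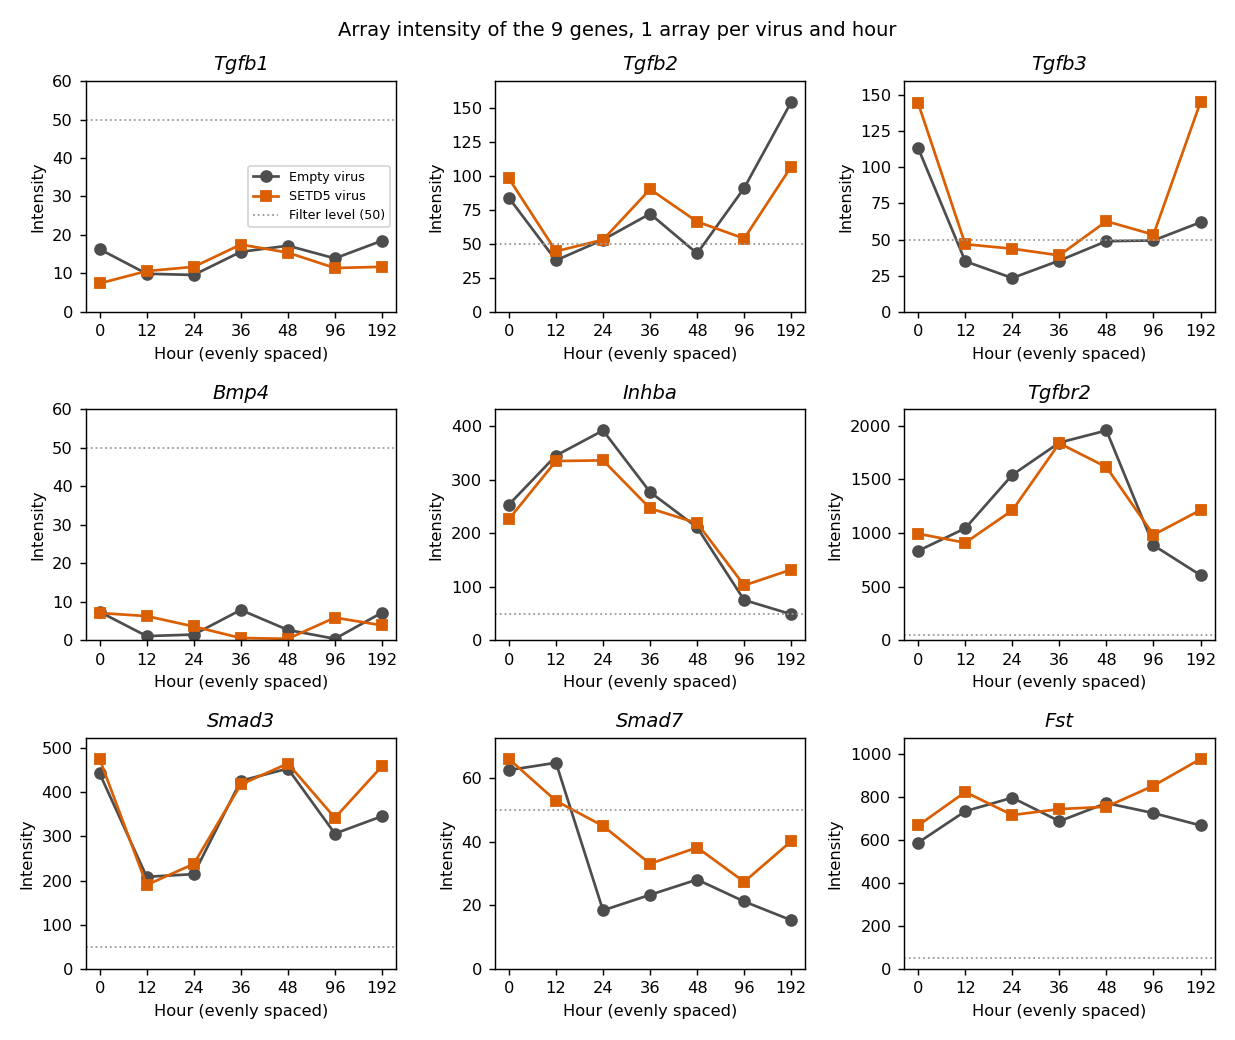
Intensity of the main probe set of each of the 9 genes (y axis, linear, scaled by the authors) by time after MDI (x axis, hours evenly spaced), with 1 array per point for the empty virus (grey circles) and the SETD5 virus (orange squares). The dotted line marks the intensity of 50 used in the filter. *Tgfb1* and *Bmp4* stay below it on all 14 arrays, and the lines of *Inhba*, *Tgfb3* and *Tgfbr2* are furthest apart at 192 h.

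Changes from 0 h were estimated as the mean over both viruses of log2(intensity + 16), with virus as a block, and called at a Benjamini-Hochberg adjusted p below 0.05 over all 8682 tested genes (limma). The offset of 16 understates changes of dim genes. The 6 hours were set against the same 0 h arrays. At 12 h, 3 of the 7 genes were called, all lower, where 47.8% of all tested genes were called (19.9% higher and 27.9% lower). At 24 h it was again 3, all lower (38.4% of all tested genes, 16.4% higher and 21.9% lower). It was 2 lower and 1 higher both at 36 h (29.4% of all tested genes, 12.4% higher and 17% lower) and at 48 h (34.2%, 14.4% higher and 19.9% lower). At 96 h 4 were lower (15.6% of all tested genes, 6.12% higher and 9.53% lower), and at 192 h 2 were lower (19.6%, 7.3% higher and 12.3% lower). By the F test over all hours 6 of 7 were called, against 66% of all tested genes. With 7 genes, the counts at 12, 24, 36 and 48 h are close to those shares. From 24 h on, each count of lower genes includes *Smad7*, which passed the filter only through the 0 and 12 h arrays. From 12 to 96 h each count of lower genes also includes *Tgfb3*. It was below 50 on every array of 12, 24 and 36 h, so its lower calls there follow in part from the filter.

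**Figure D2:**
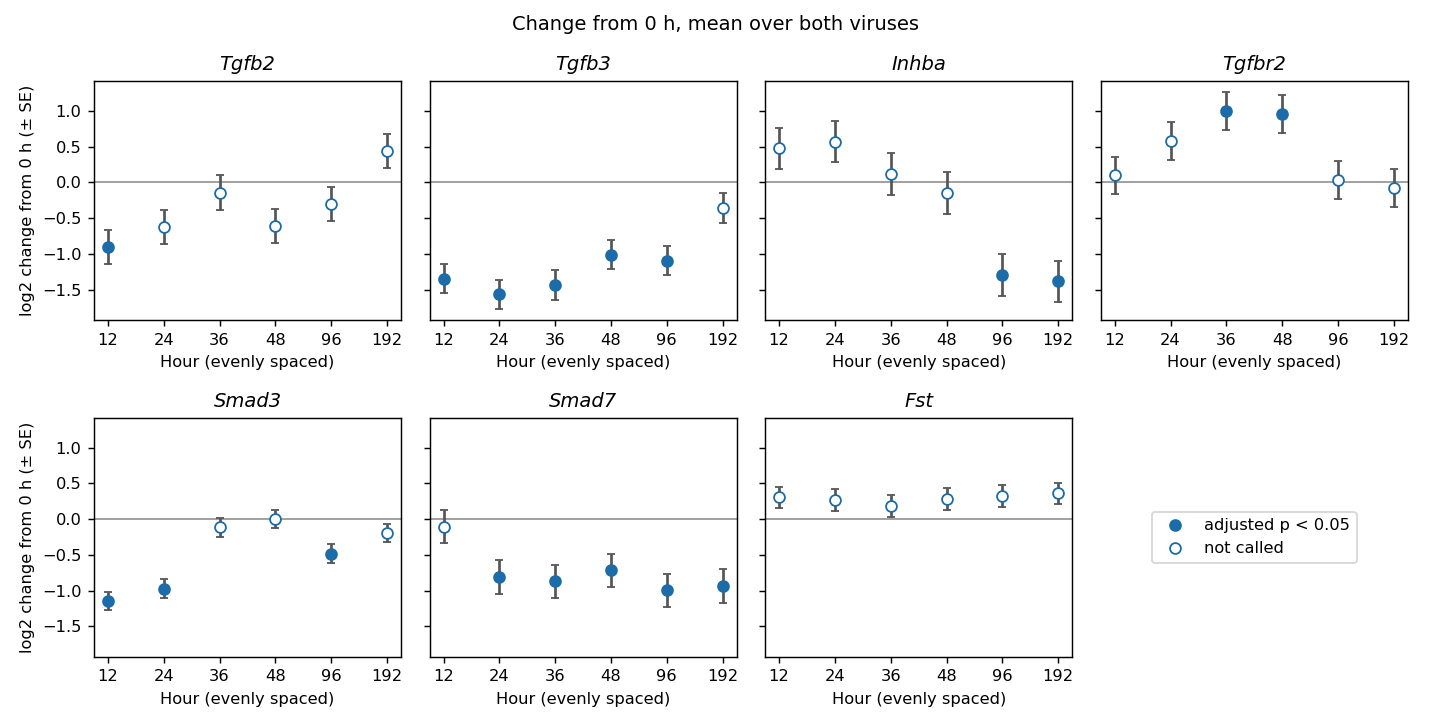
Log2 change from 0 h (y axis, mean over both viruses, bars 1 SE) of the 7 tested genes at each later hour (x axis, evenly spaced). Filled points passed the adjusted p below 0.05. *Tgfb3* is filled at 5 of 6 hours, *Smad7* at 5, and *Fst* at none.

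Among the ligands, *Tgfb1*, the broadly expressed TGF-beta isoform, read between 9.6 and 18.5 with the empty virus (median 15.6) and between 7.4 and 17.5 with SETD5 (median 11.7). *Bmp4* read between 0.4 and 7.9 with the empty virus (median 2.7) and between 0.4 and 7.1 with SETD5 (median 3.9). Both groups overlapped for both genes, and no hour stood out. The second probe set of *Tgfb1* read 5.2 to 17.5. At such intensities no fold is given.

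*Tgfb2* encodes a secreted TGF-beta isoform. With the empty virus its intensity was 83.9 at 0 h, 37.9 at 12 h, 53.1 at 24 h, 72.2 at 36 h, 43.0 at 48 h, 91.2 at 96 h and then 154.5 at 192 h. With SETD5 it was 98.2, 44.6, 53.1, 90.3, 66.4, 54.0 and 107.0 at the same hours. Both lines were low at 12 h and highest at 192 h. At 12 h the mean was 1.87-fold below 0 h (log2 change -0.90 ± 0.24, adjusted p = 0.011). That call was lost without the Empty array at 12 h (-0.81, adjusted p = 0.0727) or without the SETD5 array at 0 h (-0.79, adjusted p = 0.0758). The values at 24 h (-0.63, adjusted p = 0.0609) and 48 h (-0.62, adjusted p = 0.0712) missed the threshold, and both passed it without any one array of 96 h (adjusted p = 0.0332 and 0.0409) or 192 h (0.0322 and 0.0371). Setting the insulin-only hours against the mixture hours, where 54.4% of all tested genes were called (27.7% higher and 26.7% lower), 5 of the 7 genes were called, 3 higher and 2 lower. *Tgfb2* was 1.56-fold higher (0.64 ± 0.15, adjusted p = 0.00416). This difference was 0.27 without both 192 h arrays (adjusted p = 0.214) and 1.01 without both 96 h arrays.

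The promoters of *Tgfb2* and *Inhba* are shown because these ligand genes differed in opposite directions between the mixture and the insulin-only hours. The promoter table used here held 6 of the 9 genes. Each is the 250 bases before the RefSeq start site (build GRCm38.p6), 5′ to 3′ on the strand of the gene. Capitals mark matches on either strand to any of 5 short motifs. They were CACGTG, which is an E-box, and TATAAA, the TATA box. The core of the cAMP response element was searched as TGACG. The SMAD binding core was searched as CAGAC. The AP-1 site was searched as TGACTCA. The motifs were chosen with the results known. The *Tgfb2* stretch is chr1:186705990-186706239 (minus strand) and the *Inhba* stretch chr13:16011601-16011850 (plus strand).
Tgfb2: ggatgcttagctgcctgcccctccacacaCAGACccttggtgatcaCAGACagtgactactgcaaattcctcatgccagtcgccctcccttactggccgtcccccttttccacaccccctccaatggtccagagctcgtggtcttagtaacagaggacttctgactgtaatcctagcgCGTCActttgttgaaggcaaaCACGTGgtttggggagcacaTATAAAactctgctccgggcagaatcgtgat
Inhba: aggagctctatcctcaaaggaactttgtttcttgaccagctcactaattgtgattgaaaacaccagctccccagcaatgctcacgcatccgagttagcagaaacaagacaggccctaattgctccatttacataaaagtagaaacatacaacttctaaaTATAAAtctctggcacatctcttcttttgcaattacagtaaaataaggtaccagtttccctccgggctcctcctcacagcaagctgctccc
Counting the base before the start as -1, *Tgfb2* holds TATAAA at -31 to -26, CACGTG at -51 to -46, CGTCA at -72 to -68 and CAGAC at -221 and at -204, none of them overlapping. *Inhba* holds TATAAA at -91 to -86 and no match to the other motifs. *Tgfbr2* holds 1 CAGAC, at -160, and *Smad3* none of the motifs. Of 32851 promoters of this length, 6.02% hold CACGTG, 12.4% TATAAA, 17.8% TGACG, 42.2% CAGAC and 4.46% TGACTCA. A match is a description of the letters, and no binding was measured here.

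*Tgfb3*, another TGF-beta isoform, fell early and was low up to 96 h. With the empty virus it read 113.2 at 0 h, 35.0 at 12 h, 23.4 at 24 h, 35.5 at 36 h, 48.9 at 48 h, 49.4 at 96 h and then 62.0 at 192 h. With SETD5 it read 144.3, 46.8, 43.7, 39.1, 62.7, 53.4 and 145.2. The 0 h arrays were the highest with the empty virus, while with SETD5 the 192 h array matched the 0 h array. The mean fell by 1.35 on the log2 scale at 12 h (SE 0.21, adjusted p = 0.000552) and by 1.57 at 24 h, a 2.97-fold change (SE 0.21, adjusted p = 0.000282). It was also lower at 36 h (-1.43, adjusted p = 0.000803), at 48 h (-1.01, adjusted p = 0.00472) and at 96 h (-1.10, adjusted p = 0.00677). The 96 h call was lost without the Empty array at 0 h (-1.05, adjusted p = 0.0733) or the SETD5 array at 96 h (-0.92, adjusted p = 0.0562). At 192 h the mean change was -0.36 (adjusted p = 0.242), and without the SETD5 array at that hour it was -0.74 (adjusted p = 0.00614). From the mixture hours to the insulin-only hours *Tgfb3* rose 1.53-fold (0.61 ± 0.13, adjusted p = 0.00233), which became 0.24 without both 192 h arrays (adjusted p = 0.0806) and 0.98 without both 96 h arrays.

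*Inhba* encodes the inhibin beta A subunit, 2 copies of which form activin A. With the empty virus it read 253.8 at 0 h, 345.5 at 12 h, 392.4 at 24 h, 277.2 at 36 h, 211.1 at 48 h, 75.3 at 96 h and then 48.8 at 192 h. With SETD5 it read 226.6, 335.3, 336.5, 246.7, 219.2, 102.7 and 132.3. Both lines were highest at 24 h and low at 96 and 192 h, and from 96 to 192 h the value went down with the empty virus and up with SETD5. The gene fell at 96 h (-1.30 ± 0.29, adjusted p = 0.0146) and at 192 h (-1.38 ± 0.29, adjusted p = 0.0102). Without the Empty array at 0 h neither call held (-1.12, adjusted p = 0.142, and -1.21, adjusted p = 0.111), and the 96 h call also needed the Empty array at 96 h (-1.16 without it, adjusted p = 0.121). Without the Empty array at 192 h the 192 h value was -0.78 (adjusted p = 0.0266). Over the insulin-only hours together *Inhba* was 3.02-fold lower than over the mixture hours (-1.60 ± 0.18, adjusted p = 4.95e-05), and it was called there in all 30 alternative settings. The values at 12 h (0.48, adjusted p = 0.199) and 24 h (0.57, adjusted p = 0.147) passed the threshold only without 1 of the 192 h arrays (adjusted p = 0.0162 and 0.00841) or, at 24 h, with arrays scaled to a common median (0.82, adjusted p = 0.0331). Its other probe set read at most 6.4.

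*Tgfbr2*, the type II receptor for TGF-beta, rose while the mixture was present. With the empty virus it read 834.5 at 0 h, 1044.6 at 12 h, 1542.4 at 24 h, 1843.5 at 36 h, 1956.6 at 48 h, 886.2 at 96 h and then 607.3 at 192 h. With SETD5 it read 994.0, 909.8, 1212.0, 1837.3, 1614.9, 983.6 and 1214.9. In both lines the 36 and 48 h arrays were the highest. The mean rose 2.00-fold by 36 h (1.00 ± 0.26, adjusted p = 0.0184) and 1.94-fold by 48 h (0.95 ± 0.26, adjusted p = 0.0201). The 36 h call was lost without any one of the 4 arrays of 0 and 36 h (values 0.90 to 1.10). The 48 h call was lost without either 0 h array (0.85, adjusted p = 0.138, and 1.05, adjusted p = 0.0563) or the Empty array at 48 h (0.75, adjusted p = 0.164). At 24 h the change was 0.58 (adjusted p = 0.111), and it passed with a common median (0.84, adjusted p = 0.0296) or without 1 of the 192 h arrays (adjusted p = 0.0103). At 192 h it was -0.08 (adjusted p = 0.853), and without the SETD5 array there -0.61 (adjusted p = 0.0294). Over the insulin-only hours *Tgfbr2* was 1.60-fold lower than over the mixture hours (-0.68 ± 0.16, adjusted p = 0.00523), called in all 30 alternative settings, with -0.42 when the Empty array at 192 h was left out. Its 2 other probe sets were below 50 throughout.

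Of the SMAD genes, *Smad3*, the transcription factor that TGF-beta and activin receptors phosphorylate, dipped early. With the empty virus it read 442.8 at 0 h, 208.5 at 12 h, 214.5 at 24 h, 426.1 at 36 h, 453.8 at 48 h, 306.4 at 96 h and then 345.8 at 192 h. With SETD5 it read 475.6, 190.0, 237.6, 417.7, 465.2, 342.2 and 459.1. The 12 and 24 h arrays were the lowest in both lines, and none of them overlapped with any other hour. *Smad3* fell 2.21-fold at 12 h (-1.14 ± 0.13, adjusted p = 9.98e-05) and 1.96-fold at 24 h (-0.97 ± 0.13, adjusted p = 0.000295), and both calls held in all 23 alternative settings. At 36 h and 48 h the mean lay within 0.12 of the 0 h level (-0.12 ± 0.13 and 0.00 ± 0.13). The 96 h value (-0.48 ± 0.13, adjusted p = 0.0314) was not called in 9 of its 23 alternatives, among them every one that left out an array of 0, 24 or 96 h (values -0.52 to -0.45) and a common median (-0.50, adjusted p = 0.0541). The difference between insulin-only and mixture hours (0.22 ± 0.08, adjusted p = 0.0383) was lost in 18 of 30 alternatives. Among these it was 0.00 with a common median, 0.02 without both 12 h arrays, 0.08 without both 24 h arrays and also 0.08 without both 192 h arrays. It was 0.13 without the SETD5 array at 192 h (adjusted p = 0.163), and it rose to 0.37 without both 36 h arrays, 0.41 without both 48 h arrays and 0.36 without both 96 h arrays.

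*Smad7*, the inhibitory SMAD that TGF-beta signalling itself induces, was dim. With the empty virus it read 62.6 at 0 h, 64.9 at 12 h, 18.4 at 24 h, 23.3 at 36 h, 28.1 at 48 h, 21.2 at 96 h and then 15.3 at 192 h. With SETD5 it read 66.1, 52.9, 45.0, 33.1, 38.2, 27.4 and 40.2. The 0 and 12 h arrays were the only 4 at 50 or more. The gene thus entered the tests only through hours where it was high, so a lower value later follows in part from the filter, and its calls are no support for the counts of genes called lower. The gene was lower than at 0 h at 24 h (-0.81 ± 0.23, adjusted p = 0.0197), 36 h (-0.87 ± 0.23, adjusted p = 0.0191), 48 h (-0.72 ± 0.23, adjusted p = 0.0374), 96 h (-1.0 ± 0.23, adjusted p = 0.0176) and 192 h (-0.94 ± 0.23, adjusted p = 0.0212). None of these 5 calls held without virus as a block (adjusted p = 0.0604, 0.0586, 0.0984, 0.0606 and 0.0634) or without the Empty array at 0 h, where the values were -0.65, -0.71, -0.56, -0.84 and -0.78. The 24 h value was -0.59 with quantile normalization (adjusted p = 0.0668) and -0.52 without the Empty array at 24 h (adjusted p = 0.182), and the 192 h value -0.64 without the Empty array at 192 h (adjusted p = 0.155). The 36 and 96 h calls were likewise lost without either array of their own hour (-0.88 and -0.86, and -1.07 and -0.93). The 48 h call was lost in 13 of 22 alternatives, 8 of them without an array of 0, 36, 48 or 96 h (values -0.88 to -0.56).

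*Fst* encodes follistatin, which binds activin and blocks it. It read 587.4 to 796.3 with the empty virus (median 724.7) and 667.0 to 976.6 with SETD5 (median 754.1). The groups overlapped, with the lowest value on the Empty array at 0 h and the highest on the SETD5 array at 192 h. The changes from 0 h were 0.19 to 0.36, above 0 at every hour, and none was called, with a smallest adjusted p of 0.118 (F test over hours, adjusted p = 0.375). With a common median the 12 h value was 0.51 (adjusted p = 0.0306) and the 24 h value 0.52 (adjusted p = 0.032), where that scaling moved the median of all tested genes from -0.06 to 0.14 and from -0.05 to 0.19. The 12 h value also passed without 1 of the 192 h arrays (adjusted p = 0.0473), and the 192 h value without the Empty array there (0.59, adjusted p = 0.0362).

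Ordered by mean level over the viruses, few neighbouring hours differed by more than 2 SE of their difference. For *Tgfb3* the order was 0, 192, 48, 96, 12, 36 and 24 h, and only the step from 192 to 48 h was that large. For *Smad3* it was 48, 0, 36, 192, 96, 24 and 12 h, with such steps from 192 to 96 h and from 96 to 24 h. For *Smad7* only the step from 12 to 48 h exceeded it, and for *Inhba* only that from 48 to 96 h. No neighbouring hours of *Tgfb2*, *Tgfbr2* or *Fst* differed by that much.

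The comparison of SETD5 with empty virus asks whether the sustained SETD5 of the transduced line altered these genes. *Tgfb3* was higher with SETD5 at all 7 hours, *Smad7* at 6, *Smad3*, *Fst* and *Tgfb2* at 5, 5 and 4, and *Tgfbr2* and *Inhba* at 3. With hour as a block (limma), 0 of 7 genes were called over all hours, where 3.62% of all tested genes were called (2.73% higher and 0.887% lower). At an unadjusted p under 0.05 there were 2, *Tgfb3* and *Smad7*. *Tgfb3* passed the filter mostly through SETD5 arrays, so its higher values with SETD5 follow in part from the filter. The estimates over all hours were 0.39 ± 0.11 for *Tgfb3* (95% interval 0.14 to 0.63, adjusted p = 0.0829) and 0.33 ± 0.12 for *Smad7* (0.06 to 0.61, adjusted p = 0.149). For *Fst* the estimate was 0.15 (-0.03 to 0.33), for *Inhba* 0.15 (-0.19 to 0.50), for *Smad3* 0.10 (-0.06 to 0.25), for *Tgfbr2* 0.08 (-0.24 to 0.39) and for *Tgfb2* 0.00 (-0.28 to 0.29).

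**Figure D3:**
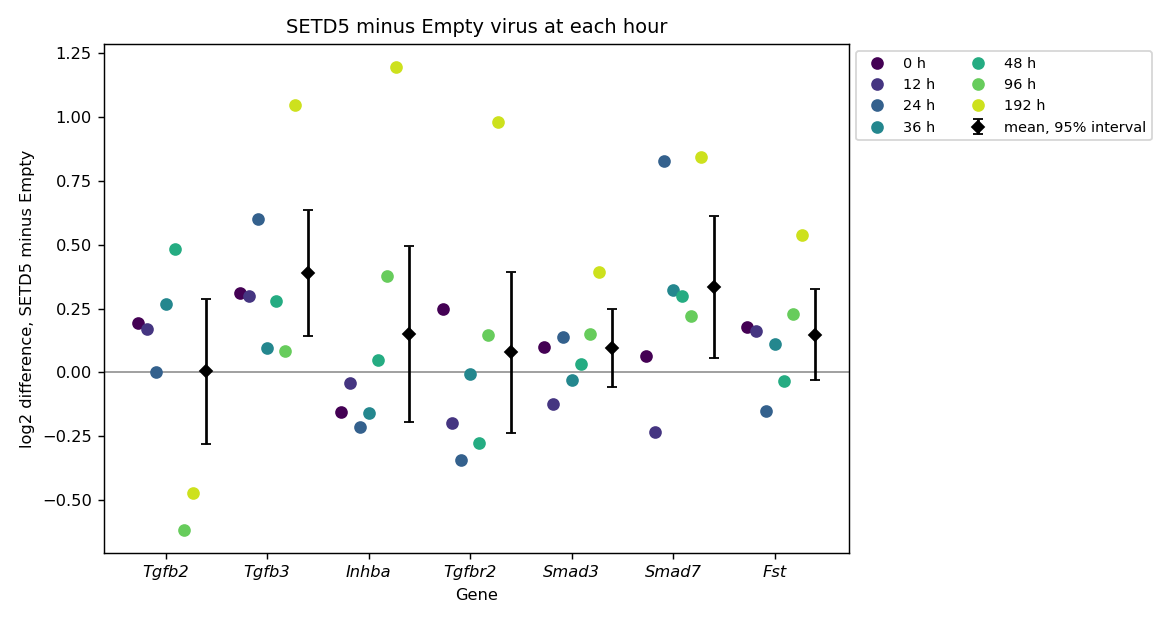
Log2 difference between the SETD5 and the empty virus array (y axis) for each of the 7 tested genes (x axis), with 1 coloured point per hour and, in black, the mean over the 7 hours with its 95% interval. The 192 h points of *Inhba* (1.19), *Tgfb3* (1.05) and *Tgfbr2* (0.98) lie above all other points of those genes, while the 96 and 192 h points of *Tgfb2* are the lowest of that gene.

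Split at 36 h, 0 of 7 were called over the early hours (0, 12 and 24 h; 0.023% of all tested genes called) and 0 of 7 over the late hours (36 to 192 h; 12% called, 7.43% higher and 4.56% lower). An unadjusted p under 0.05 was reached by 1 gene early (*Tgfb3*, 0.40 ± 0.17) and by 2 late, *Smad7* (0.42 ± 0.16, adjusted p = 0.113) and *Tgfb3* (0.38 ± 0.15, adjusted p = 0.121). The late minus early difference was called for 0 of 7 (0.023% of all tested genes), with none at an unadjusted p under 0.05, and it was largest for *Inhba* (0.50, 95% interval -0.12 to 1.12, adjusted p = 0.481).

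The window of hours decided the late result. With 96 and 192 h alone as the late hours, 5 of 7 genes were called, 4 higher and 1 lower, where 26.9% of all tested genes were (15.7% higher and 11.3% lower). *Inhba* was 1.72-fold higher with SETD5 (0.79 ± 0.16, adjusted p = 0.00635), *Tgfb3* 1.48-fold (0.57 ± 0.19, adjusted p = 0.0481), *Tgfbr2* 1.48-fold (0.56 ± 0.19, adjusted p = 0.0469) and *Fst* 1.30-fold (0.38 ± 0.12, adjusted p = 0.0402). *Tgfb2* was 1.46-fold lower (-0.54 ± 0.12, adjusted p = 0.01). The call of *Tgfb3* follows in part from the filter, which it passed mostly through SETD5 arrays. That call is no support for the count of higher genes. *Smad7* (0.53, adjusted p = 0.0888) and *Smad3* (0.27, adjusted p = 0.0961) were not called. The difference between this window and the 5 earlier hours was itself called for *Inhba* (0.89 ± 0.19, adjusted p = 0.0184) and *Tgfb2* (-0.77 ± 0.15, adjusted p = 0.0116), where 10.2% of all tested genes were called (4.35% higher and 5.86% lower), and not for *Tgfb3* (0.25, adjusted p = 0.507), *Tgfbr2* (0.68, adjusted p = 0.0761) or *Fst* (0.33, adjusted p = 0.165).

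These 2 hours were not alike. At 192 h the SETD5 array was higher by 1.19 for *Inhba*, 1.05 for *Tgfb3*, 0.98 for *Tgfbr2*, 0.84 for *Smad7*, 0.54 for *Fst* and 0.39 for *Smad3*, all log2 differences of single arrays. At 96 h the same differences were 0.38, 0.09, 0.15, 0.22, 0.23 and 0.15. So 6 of the 7 genes were further apart at 192 h, and *Tgfb2* alone was lower with SETD5 at both hours (-0.61 at 96 h and -0.47 at 192 h). At 192 h, *Inhba* and *Tgfb3* were at least 2-fold higher with SETD5, as were 2.63% of all tested genes, while 4.52% were at least 2-fold lower. The fat cell markers differed at these hours too, with *Pparg*, the master regulator of fat cell formation, at 273.7 in the SETD5 array of 192 h and 1694.5 in the Empty array, and the part of fat cell content in the values above was not tested.

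The *Tgfb2* direction depended on the probe set. A second probe set, which correlated with the main one over the 14 arrays (r = 0.87), was higher with SETD5 at all 7 hours, including 96 h (80.5 against 70.6) and 192 h (120.3 against 105.8). Over all hours it gave 0.31 ± 0.08 (adjusted p = 0.0556, every probe set tested on its own), where the main one gave 0.00. The remaining one that passed the filter (r = 0.80) gave 0.16 (adjusted p = 0.316), and like the main one it was lower with SETD5 at 96 h (58.5 against 62.1) and at 192 h (61.6 against 74.8). The dip at 12 h was called on all 3 (-0.90, -0.88 and -0.50). The probe sets of *Tgfb2* thus differed in the direction of the virus effect at 96 and 192 h, and which part of the transcript each covers was not examined here. For *Fst*, the other probe set (r = 0.71) gave 0.03 over all hours (adjusted p = 0.835). It was not higher with SETD5 at 96 h (590.7 against 603.8 with the empty virus) but was at 192 h (718.1 against 571.5). The *Fst* call over 96 and 192 h was made on the main probe set. For *Smad3* and *Smad7* no other probe set passed the filter, and *Tgfb3* had only 1.

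**Figure D4:**
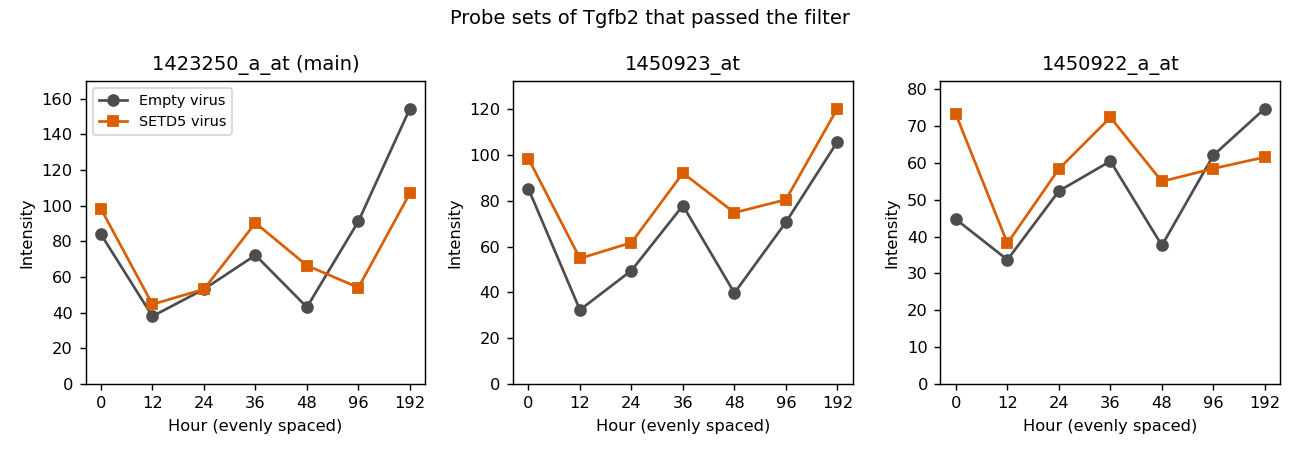
Intensity (y axis, linear) by hour (x axis, evenly spaced) of the 3 *Tgfb2* probe sets that passed the filter, with 1 array per point, grey circles for the empty virus and orange squares for SETD5. The lines cross after 48 h on the main probe set (91.2 against 54.0 at 96 h), whereas on the middle panel SETD5 is higher at all 7 hours.

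To place the 9 genes in their pathway, 8 lists of known components and response genes were used, which together held 143 genes, 132 of them with a probe set and 79 tested. Some genes, such as *Smad7*, were in several lists. At 12 h, 40 of the 79 were called (50.6%, against 47.8% of all tested genes), 12 higher and 28 lower. At 192 h it was 23 (29.1% against 19.6%), 4 higher and 19 lower. By the F test over hours 60 were called (75.9% against 66%). For SETD5 against empty virus it was 6 over all hours (7.59% against 3.62%) and 14 over the late hours (17.7% against 12%), of which 12 were higher with SETD5 and 2 lower. The lists were chosen with earlier results of these data known, so these counts are a description. Without hour as a block, none of the late calls named below held (adjusted p of 0.404 or more).

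Of 33 ligand genes, 27 had a probe set and only 4 were tested, *Tgfb2*, *Tgfb3*, *Inhba* and *Bmp5*. *Bmp5*, a BMP ligand, read 12.6 (Empty) and 9.6 (SETD5) at 0 h and 52.9 and 70 at 48 h (adjusted p = 0.000338). It reached 50 only at 36 and 48 h and so passed the filter only through the hours where it was high, and no fold is given. None of the 4 was called between the viruses, where 3.62% of all tested genes were called over all hours and 12% late. Of 10 tested receptor genes none was called between the viruses either, while 7 changed over the hours (F test, 66% of all tested genes). With so few genes, counts of none are near those shares between the viruses. *Acvr1b*, a type I activin receptor, rose 3.07-fold by 36 h (1.62, adjusted p = 0.000185), and *Tgfbr3*, the coreceptor betaglycan, rose 2.55-fold by 48 h (1.35, adjusted p = 9.43e-05). With the empty virus *Tgfbr3* read 1552.3 at 0 h, 4219.1 at 48 h and 1611.1 at 192 h. *Cd109*, a coreceptor that dampens TGF-beta signalling, was lower at 192 h (-1.27, adjusted p = 0.0021). It reached 50 only on the 0 to 36 h arrays, so a lower value later follows in part from the filter. *Rgmb*, a BMP coreceptor, was 2.23-fold lower at 12 h (-1.16, adjusted p = 0.000205).

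Among 7 tested SMAD genes, 3 changed over the hours, where 66% of all tested genes did. Besides *Smad3* and *Smad7* this was *Smad6*, the inhibitory SMAD of BMP signalling, which was 2.38-fold lower at 48 h (-1.25, adjusted p = 0.000657). *Smad5*, which BMP receptors phosphorylate, was the only one of the 7 called between the viruses in the late hours (0.31, adjusted p = 0.0466), where 12% of all tested genes were called. This call did not hold in 13 of 17 alternatives, among them each one that left out the arrays of 1 hour (values 0.24 to 0.37), and its 2 other probe sets gave -0.08 and 0.00.

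Of the 8 tested extracellular inhibitors, 5 changed over the hours, in both directions, where 66% of all tested genes changed. *Grem1*, a secreted BMP antagonist, was 6.18-fold lower at 192 h (-2.63 ± 0.37, adjusted p = 0.0013). *Chrdl1*, a chordin-like BMP antagonist, was higher at 192 h (2.29, adjusted p = 9.04e-05). It reached the intensity of 50 only on the 96 and 192 h arrays and on the SETD5 array at 0 h (67.4, against 41.8 on the Empty array). *Chrdl1* thus passed the filter mostly through hours where it was high, so its higher value at 192 h follows in part from the filter. *Bmper*, a BMP-binding protein, rose 2.90-fold by 48 h (1.53, adjusted p = 0.000169), and *Dcn*, the proteoglycan decorin, rose 1.69-fold by 192 h (0.76, adjusted p = 0.00976), though not without the Empty array at 0 h (0.68, adjusted p = 0.107). *Grem1* was the 1 inhibitor of 8 called between the viruses late, a count near the 12% of all tested genes called. It was higher with SETD5 (0.69, adjusted p = 0.0376), as were 7.43% of all tested genes. That call was lost with no filter (adjusted p = 0.0815), without the arrays of any one hour except 36 h, and without those of 192 h it was 0.44 (adjusted p = 0.0788).

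Of 10 tested genes that store or activate latent TGF-beta, 4 were lower at 12 h and none higher, where 27.9% of all tested genes were lower and 19.9% higher. *Thbs1*, thrombospondin 1, which can activate latent TGF-beta, was 9.20-fold lower at 24 h (-3.20, adjusted p = 2.74e-05), going from 1004.9 to 73.7 with the empty virus. *Itgb5*, an integrin subunit, was 4.53-fold lower at 12 h (-2.18, adjusted p = 2.42e-06), *Emilin1*, an elastic fibre protein that limits TGF-beta maturation, 2.70-fold lower at 12 h (-1.44, adjusted p = 0.000199), and *Ltbp2*, a latent TGF-beta binding protein family member, 2.39-fold lower at 24 h (-1.25, adjusted p = 0.0015). With SETD5, *Thbs1* was higher late (0.91, adjusted p = 0.00787, and 0.43 with adjusted p = 0.141 on its other probe set). *Bmp1*, a protease that frees latent ligands, was higher late (0.42, adjusted p = 0.0463), which held in 5 of 17 alternatives and was lost without the arrays of 0, 12, 24, 48, 96 or 192 h (values 0.28 to 0.50). *Itgb5* was higher over all hours (0.28, adjusted p = 0.0474), which was lost without the arrays of any one hour but 0 h (values 0.26 to 0.31), while all 3 of its other probe sets were called (0.28, 0.35 and 0.53).

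Intracellular regulators of SMAD signalling were lower more often than higher at 12 h, with 9 of 17 lower and 3 higher, as were all tested genes (27.9% lower and 19.9% higher). *Tgif1*, a corepressor of SMAD2 and SMAD3, was lower at 12 h (-1.43, adjusted p = 0.000756), and the SMAD-binding repressors *Zeb2* and *Zeb1* were 2.48-fold and 2.33-fold lower (-1.31, adjusted p = 0.000103, and -1.22, adjusted p = 0.00049). *Tob1*, an antiproliferative protein that binds SMADs, was 2.27-fold higher at 36 h (1.19, adjusted p = 0.00337). With SETD5, 2 of the 17 were called late, both lower, where 12% of all tested genes were called (7.43% higher and 4.56% lower). The count called is near that share. *Zeb2* was lower by 0.55 (log2 difference -0.55, adjusted p = 0.0154, lost without the 96 h arrays, -0.52, adjusted p = 0.0692), and its 4 other probe sets gave -0.44 to -0.01 with none called. Over all 7 hours 1 of the 17 was called, *Zeb2* (-0.57, adjusted p = 0.00958), where 0.887% of all tested genes were lower. At 0 h *Zeb2* read 401.5 with SETD5 and 547.8 with the empty virus. *Tob1* had -0.52 (adjusted p = 0.0261), lost without the 96 h arrays (-0.55, adjusted p = 0.0764) or with no filter (adjusted p = 0.059).

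Many known TGF-beta response genes were lower at the end of the course. At 192 h, 11 of 22 were lower and none higher, where 12.3% of all tested genes were lower and 7.3% higher, with a median of -0.57 against -0.06 over all tested genes. *Smad7*, whose lower calls follow in part from the filter, is counted among them. The genes named next had their largest change earlier, at 24 or 48 h. *Acta2*, smooth muscle actin, was 22.4-fold lower at 48 h (-4.49 ± 0.25, adjusted p = 3.79e-06) and *Tagln*, transgelin, was lower too (adjusted p = 2.27e-05). *Tagln* read 158.4 (Empty) and 140.7 (SETD5) at 0 h and 0.5 and 5.7 at 48 h, and no fold is given at such low values. *Ccn1*, a matricellular protein, was 10.4-fold lower at 24 h (-3.38, adjusted p = 5.01e-05) and *Tpm1*, a tropomyosin, 6.59-fold (-2.72, adjusted p = 1.72e-05). *Acta2* read 3780, 95.8 and 2364.6 at 0, 48 and 192 h with the empty virus, so that it had largely returned at 192 h. In the SETD5 line it read 3856.4 at 0 h and 3930.8 at 192 h. At the same 2 hours *Tpm1* read 1614.8 and 788.2 with the empty virus and 1776.5 and 1586.4 with SETD5. *Ccn1* stayed low, with 1348.9 and 163.4 with the empty virus and 1257.7 and 397.8 with SETD5. With SETD5, 5 of the 22 were higher late and none lower, where 7.43% of all tested genes were higher and 4.56% lower, and the median over the list was 0.35 against 0.04 over all tested genes. They included *Tnc*, the matrix protein tenascin C (0.89), *Tpm1* (0.72), *Acta2* (0.69) and *Tagln* (0.67). Of these 4 genes, *Tpm1* was also called over all 7 hours (0.49, adjusted p = 0.0474). *Tnc* was not called with 96 and 192 h alone as late hours (0.69, adjusted p = 0.0812). *Acta2* lost its call without the 48 h (0.51, adjusted p = 0.0576) or 96 h arrays (0.70, adjusted p = 0.0685), and *Tagln* without the 96 h arrays (0.66, adjusted p = 0.0802) with an offset of 64 (0.31, adjusted p = 0.0915) or with no filter (adjusted p = 0.0518).

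Of 7 tested BMP response genes, 4 rose at 12 h (19.9% of all tested genes), and 4 were lower at 96 h (9.53%) and again at 192 h (12.3%). *Smad7* is counted among the lower genes at 96 and 192 h, and its calls follow in part from the filter. The median over the list was 0.72 at 12 h, against -0.06 over all tested genes, and -1.0 at 96 h, against -0.05. *Id1*, an inhibitor of helix-loop-helix factors, rose 2.16-fold at 12 h (1.11, adjusted p = 0.00226), and *Msx1*, a homeobox repressor, rose by 24 h (1.42, adjusted p = 0.000109). *Msx1* was below 50 on both 0 h arrays (24.6 Empty, 28.9 SETD5). It reached 50 only at 24 and 36 h with the empty virus and at 12 to 48 h with SETD5. *Msx1* thus passed the filter only through hours where it was high, mostly with SETD5. Its calls follow in part from the filter and are no support for the counts of this list. *Id2* was 3.55-fold lower at 96 h (-1.83, adjusted p = 0.00203). With SETD5, 3 of the 7 were higher late (7.43% of all tested genes), *Id4*, *Id2* and *Msx1* (1.25, 0.91 and 0.61). The same 3 were called higher over all 7 hours (1.17, 0.70 and 0.50, adjusted p = 0.00352, 0.0349 and 0.0196), as were 2.73% of all tested genes. None of the list was called for late minus early. At 0 h *Id4* read 354.7 with SETD5 and 212.9 with the empty virus, and *Id2* 326.8 and 259.1. *Id2* lost its late call without the 96 h arrays (0.92, adjusted p = 0.0552), and *Msx1* with 96 and 192 h alone as late hours (0.43, adjusted p = 0.0648).

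**Figure D5:**
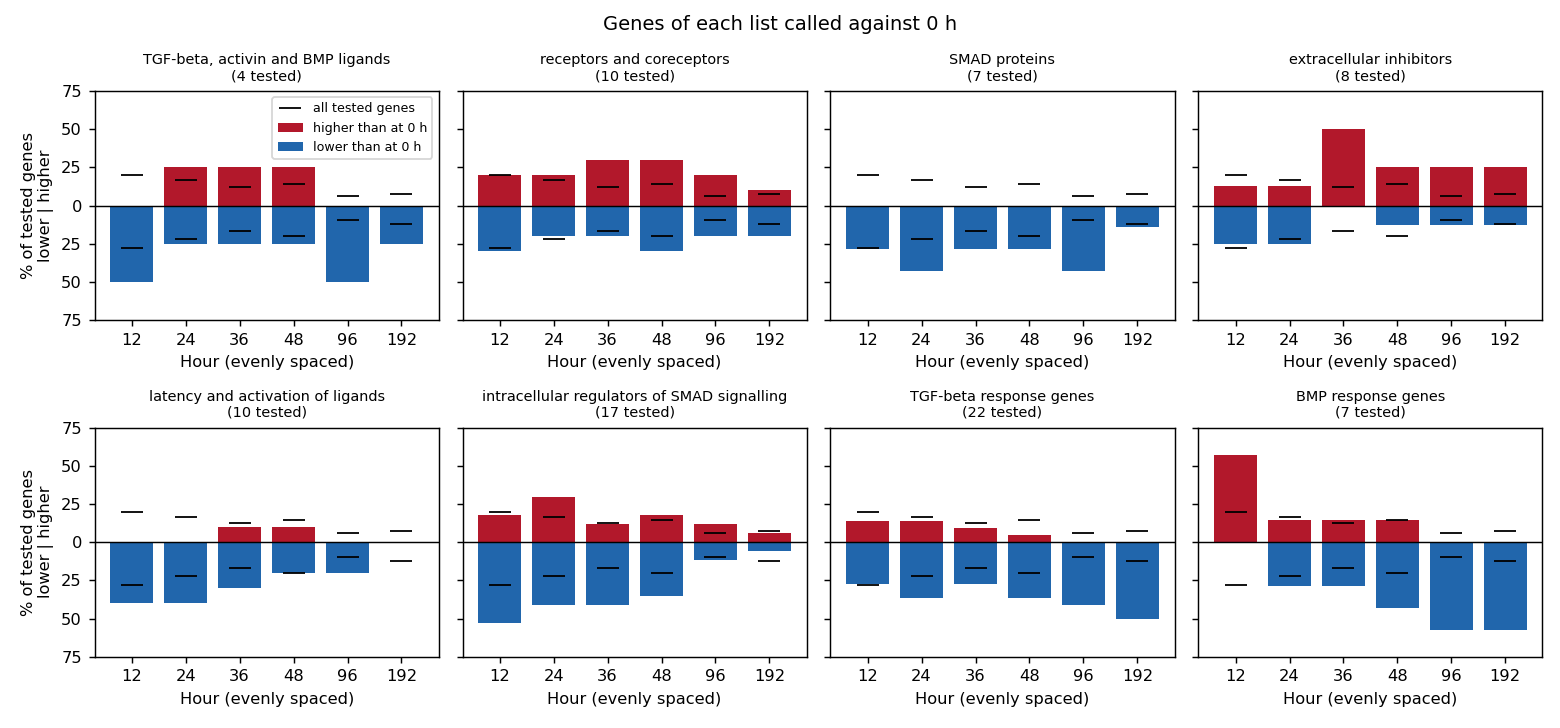
Share of the tested genes of each of the 8 lists (y axis, percent) called higher (red, upwards) or lower (blue, downwards) than at 0 h at each later hour (x axis, evenly spaced), with black dashes for the share among all 8682 tested genes. BMP response genes are higher at 12 h (4 of 7) and lower at 96 and 192 h (4 of 7 each), and TGF-beta response genes are lower at 192 h (11 of 22). *Smad7* is in both lists and is counted as lower at these hours.

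Among themselves the 7 tested genes did not share a course. Over the 14 arrays, which share their hours and cell lines, the Pearson correlation of log2 values between pairs ran from -0.66 (*Tgfb2* with *Inhba*) to 0.61 (*Tgfb3* with *Smad3*). Among 6444 other tested genes whose intensity averaged 100 or above, the most similar to *Tgfb2* were *Man2c1*, *Ikbkg* and *Ypel3* (r = 0.93, 0.92 and 0.91), and to *Tgfb3* they were *Zyx*, *Klhl22* and *Tpm1* (each r = 0.94). For *Inhba* they were *Tagln2*, *Id3* and *Rgs10* (0.98, 0.96 and 0.96), and for *Tgfbr2* they were *Snhg8*, *Rps15* and *Rps3a1* (0.96, 0.93 and 0.93). *Smad3* was nearest to *Stk25*, *Use1* and *Ube2h* (0.93, 0.93 and 0.92), and *Smad7* to *Cmtm7*, *Mpzl1* and *Rai14* (0.90, 0.89 and 0.89). *Fst* had no close neighbour, with *Dip2b*, *Sipa1l1* and *Spin4* at 0.78, 0.76 and 0.75. By rank correlation only *Ikbkg*, *Mpzl1* and *Sipa1l1* stayed among the 3 most similar to their gene.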

How the data were processed

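The authors hybridised labelled cRNA to the arrays and computed an average difference per probe set with the GeneChip Analysis Suite. The deposited values are linear intensities, which had been scaled so that the mean after trimming 2% at each end was 100 on every array. No source used here states a scaling target or a probe set filter. The number of arrays limits the precision. Depending on the array, 88.4% to 93.8% of tested genes reached 50.

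Groups came from the virus and hour in the labels. Symbols came from the platform annotation (34944 probe sets with 1 symbol, 932 with several, not used). Genes reaching 50 on 3 or more arrays were tested on log2(intensity + 16) with limma 3.58.1 (lmFit, eBayes, R 4.3.3), two-sided, Benjamini-Hochberg adjusted over 8682 genes. Virus effects had hour as a block (6 residual degrees of freedom, 5 with windows) and hour effects virus as a block (6). Arrays of the same hour deviated together (correlation 0.71 to 0.90 at each hour), so the hour pairs them. The tests were checked on simulated data. Named genes were the 9 members, up to 4 genes per list called between viruses, up to 4 called over hours by size of change, and the 3 most correlated genes per member. Members and lists were chosen with earlier results of these data known. Alternatives were quantile normalization, a common median, offsets of 4 and 64, no filter or a filter of 100, every probe set on its own, a trended robust prior, no block, another late window, and leaving out each hour's pair of arrays. Leaving out each array for the hour comparisons was added after seeing the data. Figures were drawn with matplotlib 3.10.9. Promoters came from RefSeq.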

Additional observations from a re-analysis of the deposited data

Results flagged for a closer look

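The SETD5 minus empty virus difference of *Inhba* at 192 h, 1.19 on the log2 scale, stood apart from the other 6 hours, which lay between -0.21 and 0.38. Its gap to the nearest hour was 0.58 of the whole range of the 7 values, just above Dixon's critical value for 7 values. It rests on 1 array per virus (132.3 with SETD5 and 48.8 with the empty virus). Such a test marks about 1 in 20 groups by chance, and 7 genes were examined.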

How the results depend on the processing

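Of 84 estimates for the 7 tested genes, 62 had the same sign and 32 the same side of the threshold under every alternative run. With 1 array per virus and hour, each hour comparison rests on 4 arrays, and dim genes such as *Smad7* lie near the filter.

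Quantile normalization turned the *Tgfb2* virus effect over all hours to -0.039 and the *Smad7* change at 12 h to 0.11. A common median turned the changes of *Smad7* at 12 h (0.064), *Smad3* at 36 h (0.045) and *Inhba* at 48 h (0.048) and, for insulin-only minus mixture hours, *Fst* (-0.14), and it gave 6 called genes at 24 h. An offset of 64 gave -0.0084 for *Tgfb2* over all hours and 0.017 for *Tgfb3* late minus early. A filter of 100 left 1 called gene at 192 h. Without the virus as a block 2 were called at 96 h and 1 at 192 h, and without the hour as a block none of the 7 was called between the viruses. With 96 and 192 h as the late window, 5 genes were called late and 2 for late minus early, where *Tgfb3* was 0.25. The causes were not tested.

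Leaving out arrays, the number of the 7 genes called ran from 2 to 5 at 12 h, 2 to 6 at 24 h, 1 to 3 at 36 h, 1 to 4 at 48 h, 0 to 4 at 96 h, 0 to 4 at 192 h, 2 to 6 for insulin-only minus mixture hours and 5 to 6 for any change. Among estimates that crossed 0, the virus effect over all hours ran from -0.076 to 0.107 for *Tgfb2*, -0.071 to 0.15 for *Tgfbr2* and -0.023 to 0.21 for *Inhba*. The early effect ran from -0.27 to 0.026 for *Tgfbr2*, -0.012 to 0.12 for *Smad3* and -0.084 to 0.44 for *Smad7*, and the late effect from -0.27 to 0.093 for *Tgfb2* and -0.044 to 0.37 for *Tgfbr2*. Late minus early ran from -0.25 to 0.071 for *Tgfb3* and -0.023 to 0.51 for *Smad7*. Against 0 h the ranges were -0.065 to 0.26 (*Tgfbr2*) and -0.44 to 0.22 (*Smad7*) at 12 h, -0.30 to 0.013 (*Tgfb2*) and -0.063 to 0.30 (*Inhba*) at 36 h, -0.034 to 0.037 (*Smad3*) and -0.32 to 0.031 (*Inhba*) at 48 h, -0.66 to 0.059 (*Tgfb2*) and -0.063 to 0.13 (*Tgfbr2*) at 96 h, and -0.74 to 0.024 (*Tgfb3*) and -0.61 to 0.44 (*Tgfbr2*) at 192 h. For insulin-only minus mixture hours *Fst* ran from -0.032 to 0.20.

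Over all tested genes, the calls ranged from 1 to 821 over all hours (314 as reported), 0 to 133 early (2), 1 to 2339 late (1041), 0 to 887 late minus early (2), 2648 to 6350 at 12 h (4148), 1922 to 5025 at 24 h (3332), 1120 to 3682 at 36 h (2554), 1281 to 4404 at 48 h (2972), 359 to 2241 at 96 h (1358), 345 to 3254 at 192 h (1703), 3725 to 7423 for insulin-only minus mixture hours (4721) and 4322 to 8894 for any change (5728).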
